A study of Danio rerio with 24 samples.

Results

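The genes described here are the zebrafish Wnt ligands, their receptors, their secreted inhibitors and the proteins that carry the signal into the nucleus. Members were chosen by name: every probe set of the array whose single annotated symbol began with wnt and a digit, fzd, frzb, sfrp, dkk, wif1, lef1, tcf7, axin, ctnnb, lrp5, lrp6, dvl, gsk3, porcn or wls, or was apc. The rule found 50 of 15502 tested probe sets, for 41 of 8793 genes with a single symbol. No tested probe set with a single symbol began with lrp5 or lrp6 or was named apc. By role, there were 10 ligands, 2 genes of ligand secretion, 8 receptors, 7 secreted antagonists or their relatives, 6 cytoplasmic transducers and 8 genes of β-catenin or its nuclear partners. Probe sets of a gene with more than 1 are numbered, which applied to 8 genes. A further 2 probe sets that matched the rule in part also carried other symbols and were left out. Not every name fits the pathway equally well: ctnnbl1 resembles β-catenin in name and encodes a protein associated with splicing, and dkk3b belongs to a branch of the Dickkopf family whose action on Wnt is less settled than that of dkk1b.

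Wnt ligands are secreted lipid-modified proteins that need the acyltransferase Porcupine and the carrier Wntless to leave the cell. In the canonical branch, a ligand bound to a Frizzled receptor recruits Dishevelled and stops the complex of Axin, APC and GSK3 from marking β-catenin for degradation, after which β-catenin enters the nucleus and acts with Lef and Tcf proteins on target genes. In the regenerating zebrafish fin this branch is known to promote outgrowth of the blastema, the proliferating mass beneath the wound epidermis, while wnt5b is known as a non-canonical ligand that can oppose it.

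Caudal fins of AB strain zebrafish were measured on Affymetrix arrays in 8 groups of 3 replicates. Each larval replicate pooled 150 fins, taken intact at 2 days post fertilization or cut at that age and collected after 1, 2 or 3 days (days post amputation, dpa). Adult fins came from 10 pooled males for each replicate, unamputated or at 1, 3 or 5 dpa, and adult regenerates included a short stretch of stump beside the new tissue. Larvae at 2 and 3 dpa had been kept in DMSO vehicle, regenerating adults had been injected with vehicle liposomes of phosphatidylcholine, and no vehicle was stated for larvae at 1 dpa or for unamputated fins of either age. Larval RNA (100 ng) went through a labelling kit with a second cycle and adult RNA (2.5 µg) through a single-cycle kit. Hence age, kit and RNA input cannot be told apart, nor can day, fish age and vehicle in larvae, nor amputation and injection in adults. Titles of all regenerating adult arrays and of larval 2 and 3 dpa name an adult and larval fin study. Those of unamputated fins and larval 1 dpa do not. Whether the 2 sets of arrays were measured apart is not stated, and any such difference cannot be told apart from these contrasts. The labels disagreed in 2 places, where the titles were followed: the text for adult unamputated fin named days after amputation, and source names gave the first replicate's number to all larval unamputated and 1 dpa arrays.

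The deposited values are a ratio, each probe set relative to a reference of its own that the sources used here do not state. A ratio can be compared between arrays for 1 probe set, but not between genes, and it cannot show whether a gene was expressed at all. For example, 5 of the 50 Wnt probe sets, among them wnt1 and wnt8b, stayed below 1 on all 24 arrays. Changes are differences of mean log2 ratio, given ± the standard error of a limma model. A call required a change of at least 2-fold and an adjusted p under 0.05 (Benjamini-Hochberg, over all 15502 probe sets), and "rose" and "fell" are used only of called changes. Replicates were taken as separate pools of fins, as the titles number them. For larval unamputated and 1 dpa fin, whose source names all carry the first replicate's number, the labels do not settle this. Standard errors and p-values of larval changes rest on that reading. Precision is limited by the number of arrays. Replicates correlated at r of 0.793 to 0.939 in 7 groups and at 0.629 to 0.808 in larval fin at 3 dpa, where replicate 3 stood apart. The count of Wnt probe sets called at larval 3 dpa was 7 with and without that array. The median of all probe sets lay 0.17 to 0.18 below unamputated fin in regenerating adult fin, against -0.03 to 0.00 in larvae. The 18 hybridization control probe sets moved as well: their mean log2 ratio was -1.09 to -0.72 on the 9 regenerating adult arrays and 0.10 to 0.78 on the 3 unamputated ones. Their part in the adult changes was not tested.

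In adult fin, 18 of the 50 Wnt probe sets were called against unamputated fin at 1 dpa, where 16.1% of all probe sets were called. Of these 10 were higher, beside 8.68% of all probe sets, and 8 lower, beside 7.4%. At 3 dpa 18 were called, beside 14.3% of all probe sets: 14 higher, beside 8.1%, and 4 lower, beside 6.19%. At 5 dpa 15 were called, beside 11.5%: 11 higher, beside 7.01%, and 4 lower, beside 4.46%. The called shares of Wnt probe sets were thus 36%, 36% and 30%. In larval fin, 4 were called at 1 dpa, beside 4.01% of all probe sets, with 2 higher (2.43% of all) and 2 lower (1.58%). At 2 dpa 6 were called, beside 12.5%, with 4 higher (6.23%) and 2 lower (6.32%). At 3 dpa 7 were called, beside 10.6%, with 5 higher (5.08%) and 2 lower (5.51%). The larval shares of 8%, 12% and 14% lay near those backgrounds at 2 and 3 dpa. The count at larval 1 dpa rested on few arrays and was 2 without larval unamputated replicate 1, and it held 2 higher and 1 lower after quantile normalization. At larval 2 dpa, 10 were called after quantile normalization.

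Across the 6 comparisons 24 probe sets of 22 genes were called at least once. Of these 15 were called in adults alone, 7 in both ages and 2 in larvae alone. These groupings count calls, and the adult and larval changes are tested against each other further on. The matching groupings over all probe sets were not counted. More of all probe sets were called in adults at 1 and 3 dpa (16.1% and 14.3%) than in larvae on those days (4.01% and 10.6%). Whether the groupings are particular to the Wnt genes therefore cannot be read from them. The 26 probe sets that were never called changed by -0.95 to 1.04. The median change of the 50 probe sets was 0.02, 0.14 and 0.22 at 1, 3 and 5 dpa in adults, which is 0.19, 0.33 and 0.39 above the median of all probe sets. In larvae it was -0.05, 0.05 and 0.16 at 1, 2 and 3 dpa.

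**Figure D1:**
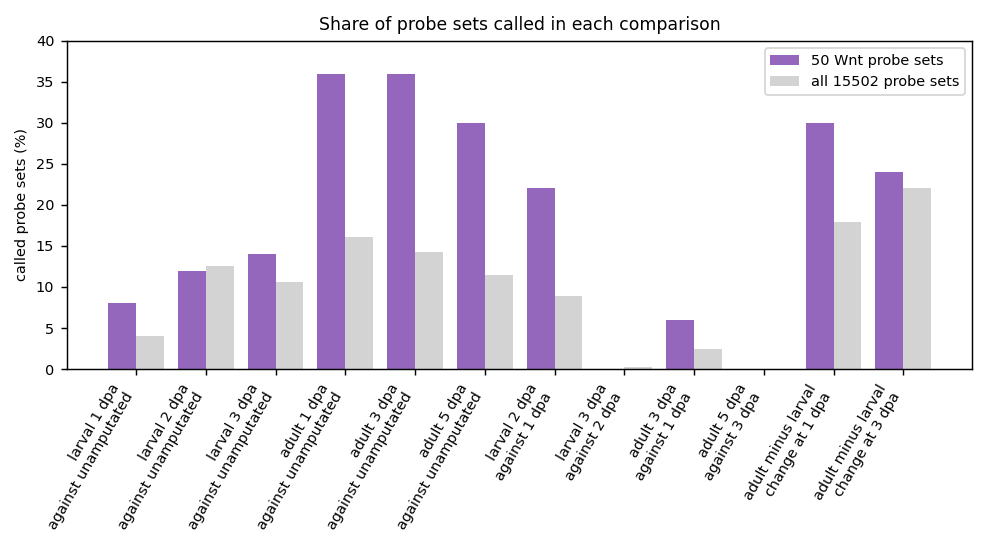
Percent of probe sets called (vertical axis) in each of the 12 comparisons, for the 50 Wnt probe sets (purple) and for all 15502 (grey). Adult regenerating fin shows 30% to 36% of Wnt probe sets called, and larval fin 8% to 14%.

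**Figure D2:**
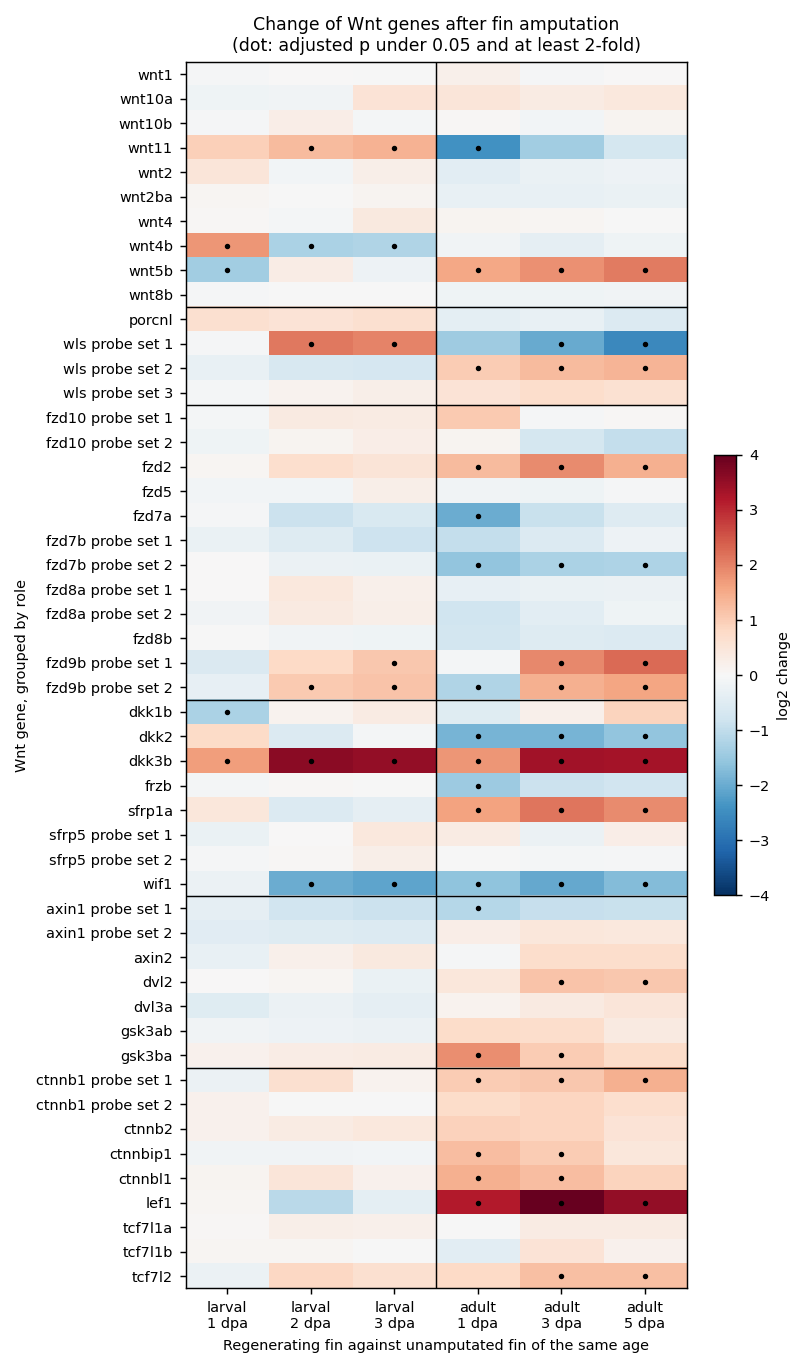
Log2 change (colour) of the 50 Wnt probe sets (rows, separated by role) in 3 larval and 3 adult regenerating groups against unamputated fin of the same age, with a dot on each called change. The darkest cells are lef1 in adults and dkk3b in both ages.

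Before the members are taken in turn, the cell content of the larval samples needs stating, since it differed between the days. Vehicle and the set of array titles also changed between larval 1 and 2 dpa. Of 10 measured skeletal muscle markers, 9 fell in larval fin at both 2 and 3 dpa, with median changes of -5.12 and -5.27 over the list. The mean log2 ratio of that list was 3.81 to 5.81 in unamputated larval fin and 4.97 to 6.74 at 1 dpa, but 0.01 to 0.51 at 2 dpa and -0.19 to 0.11 at 3 dpa. Notochord and cartilage markers fell for 6 of 9 genes on both days, with a list mean of 2.16 to 2.41 in unamputated fin, 0.02 to 0.60 at 2 dpa and -0.10 to 0.27 at 3 dpa. Erythrocyte markers fell for 5 of 7 genes on both days, and cell cycle genes for 9 of 11 at 2 dpa and 3 of 11 at 3 dpa. Leukocyte markers rose for 6 of 8 genes at larval 1 dpa. In adults no muscle or erythrocyte marker fell, and cell cycle genes rose for 11, 7 and 7 of 11 at 1, 3 and 5 dpa. The muscle list mean was -0.62 to -0.61 in unamputated adult fin. That of the erythrocyte list was -0.32 to 0.11 there, against 2.62 to 2.79 in unamputated larval fin. Of 6 measured fin mesenchyme and blastema markers in adults, 4 rose and 2 fell at 1 dpa, and all 6 rose at 3 and 5 dpa. With whole fins, fewer cells of a type and less RNA per cell cannot be told apart. The part of these shifts in the Wnt changes below was not tested.

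Among the 10 ligands, 3 changed and each did so differently in the 2 ages. The non-canonical ligand wnt5b gave larval ratios of 5.08, 3.94 and 2.67 in unamputated fin, 1.75, 1.66 and 0.996 at 1 dpa, 5.83, 4.3 and 4.08 at 2 dpa and 3.84, 4.49 and 1.98 at 3 dpa. Its adult ratios were 0.18, 0.153 and 0.149 in unamputated fin, 0.331, 0.84 and 0.376 at 1 dpa, 0.609, 0.946 and 0.324 at 3 dpa and 0.751, 0.51 and 0.791 at 5 dpa. Larval values dipped on all 3 arrays at 1 dpa, below every unamputated array, and overlapped them afterwards, while every regenerating adult array lay above all unamputated ones. The larval change was -1.40 ± 0.34, 0.31 ± 0.34 and -0.22 ± 0.34 at 1, 2 and 3 dpa, a fall at 1 dpa alone (adjusted p 0.02). In adults wnt5b rose by 1.55 ± 0.41, 1.83 ± 0.41 and 2.07 ± 0.41 at 1, 3 and 5 dpa, which is 2.94-fold, 3.57-fold and 4.19-fold (adjusted p 0.013, 0.0065 and 0.0056). The larval fall lost its call at -1.50 after quantile normalization, -1.19 without replicate 1 of larval unamputated fin, -1.37 without replicate 2 of larval unamputated fin and -1.15 without replicate 3 of larval 1 dpa. The adult rise at 1 dpa lost its call at 1.03 after quantile normalization and 0.91 with ratios below 0.25 raised to 0.25.

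For wnt11, a ligand known for guiding cell movements in the embryo, larval ratios were 0.878, 0.979 and 0.773 in unamputated fin, 1.67, 1.86 and 1.52 at 1 dpa, 2.3, 2.05 and 1.92 at 2 dpa and 2.88, 2.3 and 1.81 at 3 dpa. All regenerating larval arrays exceeded all unamputated ones. Adult ratios were 1, 1.19 and 0.974 in unamputated fin, 0.438, 0.0752 and 0.229 at 1 dpa, 0.523, 0.386 and 0.319 at 3 dpa and 0.733, 0.888 and 0.417 at 5 dpa. Every regenerating adult array lay below the unamputated ones, and the lowest values were at 1 dpa. Larval wnt11 changed by 0.94 ± 0.17, 1.26 ± 0.17 and 1.39 ± 0.17 at 1, 2 and 3 dpa and rose at 2 and 3 dpa (adjusted p 0.00021 and 0.00012), the change at 1 dpa being just under 2-fold. Adult wnt11 changed by -2.42 ± 0.53, -1.39 ± 0.53 and -0.69 ± 0.53 at 1, 3 and 5 dpa and fell at 1 dpa (0.0052), while the later days did not pass (adjusted p 0.057 and 0.32).

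The third ligand, wnt4b, had larval ratios of 1.21, 1.44 and 1.6 in unamputated fin, 4.01, 6.37 and 4.29 at 1 dpa, 0.581, 0.562 and 0.597 at 2 dpa and 0.643, 0.62 and 0.582 at 3 dpa. It was high on all 3 arrays at 1 dpa and low on all 6 later ones, with no overlap with unamputated fin in either direction. Adult ratios were 0.613, 0.599 and 0.546 in unamputated fin, 0.484, 0.536 and 0.562 at 1 dpa, 0.467, 0.454 and 0.444 at 3 dpa and 0.523, 0.516 and 0.519 at 5 dpa. The larval change was 1.77 ± 0.17, -1.28 ± 0.17 and -1.20 ± 0.17 at 1, 2 and 3 dpa, a rise of 3.4-fold followed by falls (adjusted p 0.00015, 0.00019 and 0.00033), and the step from 1 to 2 dpa was -3.04 ± 0.17. At larval 1 dpa, where wnt4b rose, none of the 9 notochord and cartilage genes (list median 0.13) or 10 muscle genes was called. Leukocyte markers rose for 6 of 8 genes that day, and erythrocyte markers rose for 2 and fell for 1 of 7. At 2 and 3 dpa 6 of the 9 notochord and cartilage genes fell and 1 rose, while 9 of 10 muscle and 5 of 7 erythrocyte genes fell. The part of these cell types in the wnt4b changes was not tested. No adult change of wnt4b reached 2-fold, the largest being -0.36 ± 0.09 at 3 dpa. The other 7 ligands, wnt1, wnt2, wnt2ba, wnt4, wnt8b, wnt10a and wnt10b, were never called and changed by -0.41 to 0.54. wnt1 and wnt10b, which lie next to each other in the RefSeq gene order, were both nearly level, at ratios of 0.28 to 0.551 and 0.558 to 0.951 over all 24 arrays. Whether either gene was expressed cannot be read from these ratios, so level values may also mean no signal. wnt10a, a canonical ligand known from regenerating fin, changed by 0.49 ± 0.16, 0.32 ± 0.16 and 0.41 ± 0.16 at 1, 3 and 5 dpa in adults and by -0.18 ± 0.21, -0.13 ± 0.21 and 0.54 ± 0.21 at 1, 2 and 3 dpa in larvae, none of which was called.

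Of the 12 receptor probe sets, 3 rose and 1 fell in adult fin at both 3 and 5 dpa. The Frizzled receptor gene fzd2 had adult ratios of 0.312, 0.282 and 0.261 in unamputated fin, 0.646, 0.682 and 0.71 at 1 dpa, 1.22, 0.955 and 1.02 at 3 dpa and 0.689, 0.77 and 0.811 at 5 dpa. All regenerating adult arrays were higher than all unamputated ones. It rose by 1.26 ± 0.12, 1.90 ± 0.12 and 1.41 ± 0.12 at 1, 3 and 5 dpa (adjusted p 0.00014, 1.6e-05 and 0.00012), which is 2.39-fold, 3.72-fold and 2.66-fold. Larval ratios were 1.24, 1 and 0.972 in unamputated fin, 1.38, 1.06 and 0.962 at 1 dpa, 1.78, 1.73 and 1.56 at 2 dpa and 1.44, 2.06 and 1.16 at 3 dpa. The larval changes of 0.07 ± 0.20, 0.67 ± 0.20 and 0.51 ± 0.20 at 1, 2 and 3 dpa did not reach 2-fold.

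Both probe sets of fzd9b, another Frizzled receptor, rose late in both ages. For probe set 1 the larval ratios were 1.88, 1.6 and 1.54 in unamputated fin, 1.82, 1 and 0.742 at 1 dpa, 2.66, 3.51 and 2.64 at 2 dpa and 3.18, 4.7 and 2.96 at 3 dpa. Adult ratios of probe set 1 were 0.253, 0.214 and 0.141 in unamputated fin, 0.155, 0.214 and 0.195 at 1 dpa, 1.04, 0.776 and 0.513 at 3 dpa and 0.983, 0.962 and 0.906 at 5 dpa. For probe set 2 the larval ratios were 1.52, 1.31 and 1.29 in unamputated fin, 1.67, 0.931 and 0.856 at 1 dpa, 2.51, 3.43 and 2.64 at 2 dpa and 2.99, 3.56 and 2.61 at 3 dpa. Adult ratios of probe set 2 were 0.269, 0.293 and 0.317 in unamputated fin, 0.113, 0.149 and 0.122 at 1 dpa, 0.865, 0.788 and 0.71 at 3 dpa and 0.936, 1 and 0.697 at 5 dpa. Adult arrays at 3 and 5 dpa were higher than all unamputated and 1 dpa arrays in both probe sets. Probe set 1 changed by -0.08 ± 0.27, 1.92 ± 0.27 and 2.27 ± 0.27 at 1, 3 and 5 dpa in adults and by -0.59 ± 0.29, 0.80 ± 0.29 and 1.08 ± 0.29 at 1, 2 and 3 dpa in larvae, of which adult 3 and 5 dpa (adjusted p 0.00073 and 0.00054) and larval 3 dpa (0.016) were called. Probe set 2 changed by -1.20 ± 0.16, 1.43 ± 0.16 and 1.57 ± 0.16 at 1, 3 and 5 dpa in adults and by -0.32 ± 0.23, 1.05 ± 0.23 and 1.15 ± 0.23 at 1, 2 and 3 dpa in larvae, called on all 3 adult days and at larval 2 and 3 dpa. The probe sets agreed in sign in 6 of 6 comparisons but were 1.12 apart at adult 1 dpa, where probe set 2 alone fell. That fall lost its call at -0.77 after quantile normalization and -0.22 with ratios below 0.25 raised to 0.25. From adult 1 to 3 dpa they rose by 2.0 ± 0.27 and 2.62 ± 0.16. The larval rise of probe set 1 at 3 dpa lost its call at 1.06 without replicate 2 of larval unamputated fin, 1.03 without replicate 3 of larval unamputated fin and 0.88 without replicate 2 of larval 3 dpa, and that of probe set 2 at 2 dpa at 0.91 without replicate 2 of larval 2 dpa.

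The paired genes fzd7a and fzd7b, copies of 1 ancestral Frizzled gene, were lower in regenerating adult fin. For fzd7a the adult ratios were 0.581, 0.634 and 0.589 in unamputated fin, 0.214, 0.0873 and 0.188 at 1 dpa, 0.437, 0.301 and 0.255 at 3 dpa and 0.511, 0.503 and 0.286 at 5 dpa. Those of larvae were 1.64, 1.96 and 1.81 in unamputated fin, 1.86, 1.77 and 1.62 at 1 dpa, 0.924, 1.07 and 1 at 2 dpa and 1.15, 1.21 and 1.18 at 3 dpa. All adult regenerating arrays were below the unamputated ones, with the lowest values at 1 dpa. It changed by -1.98 ± 0.35, -0.90 ± 0.35 and -0.52 ± 0.35 at 1, 3 and 5 dpa in adults and fell at 1 dpa alone (adjusted p 0.0018), while larval changes of -0.04 ± 0.10, -0.85 ± 0.10 and -0.61 ± 0.10 at 1, 2 and 3 dpa stayed under 2-fold. For fzd7b probe set 2 the adult ratios were 2.04, 2.36 and 2.02 in unamputated fin, 0.803, 0.516 and 0.863 at 1 dpa, 0.804, 0.882 and 0.968 at 3 dpa and 0.821, 0.991 and 0.905 at 5 dpa. Those of larvae were 1.19, 1.17 and 1.14 in unamputated fin, 1.56, 1.08 and 1 at 1 dpa, 0.926, 1.06 and 0.98 at 2 dpa and 0.919, 1.21 and 0.839 at 3 dpa. It fell by 1.59 ± 0.18, 1.28 ± 0.18 and 1.24 ± 0.18 at 1, 3 and 5 dpa in adults (adjusted p 0.00028, 0.00082 and 0.0014), with larval changes of 0.03 ± 0.17, -0.24 ± 0.17 and -0.26 ± 0.17 at 1, 2 and 3 dpa. After quantile normalization its changes at adult 3 and 5 dpa were -0.96 and -0.94 and no longer called. Probe set 1 of fzd7b was not called: its adult ratios were 4.68, 5 and 0.737 in unamputated fin, 0.948, 1.68 and 1.49 at 1 dpa, 1.43, 2.85 and 1.35 at 3 dpa and 1.9, 2.11 and 2.82 at 5 dpa, and unamputated replicate 3 lay below every regenerating array while the other 2 lay above them. Its adult changes were -0.95 ± 0.64, -0.55 ± 0.64 and -0.20 ± 0.64 at 1, 3 and 5 dpa. Larval ratios of this probe set were 1, 1.12 and 0.879 in unamputated fin, 1.48, 0.787 and 0.482 at 1 dpa, 0.69, 0.732 and 0.688 at 2 dpa and 0.455, 0.643 and 0.59 at 3 dpa. The remaining 6 receptor probe sets, for fzd5, fzd8a, fzd8b and fzd10, were never called. Of these, fzd10 probe set 1 spread widely in adults, from 1.13 to 5.62 in unamputated fin and 2.74 to 12 at 1 dpa. Adult ratios of fzd10 probe set 2 were 3.15, 3.01 and 2.76 in unamputated fin and 2.32, 3.54 and 4.05 at 1 dpa. They were 1.59, 2.16 and 1.82 at 3 dpa and 1.53, 1.68 and 1.43 at 5 dpa, below all unamputated arrays. Its lowest change was -0.94, just under 2-fold.

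**Figure D3:**
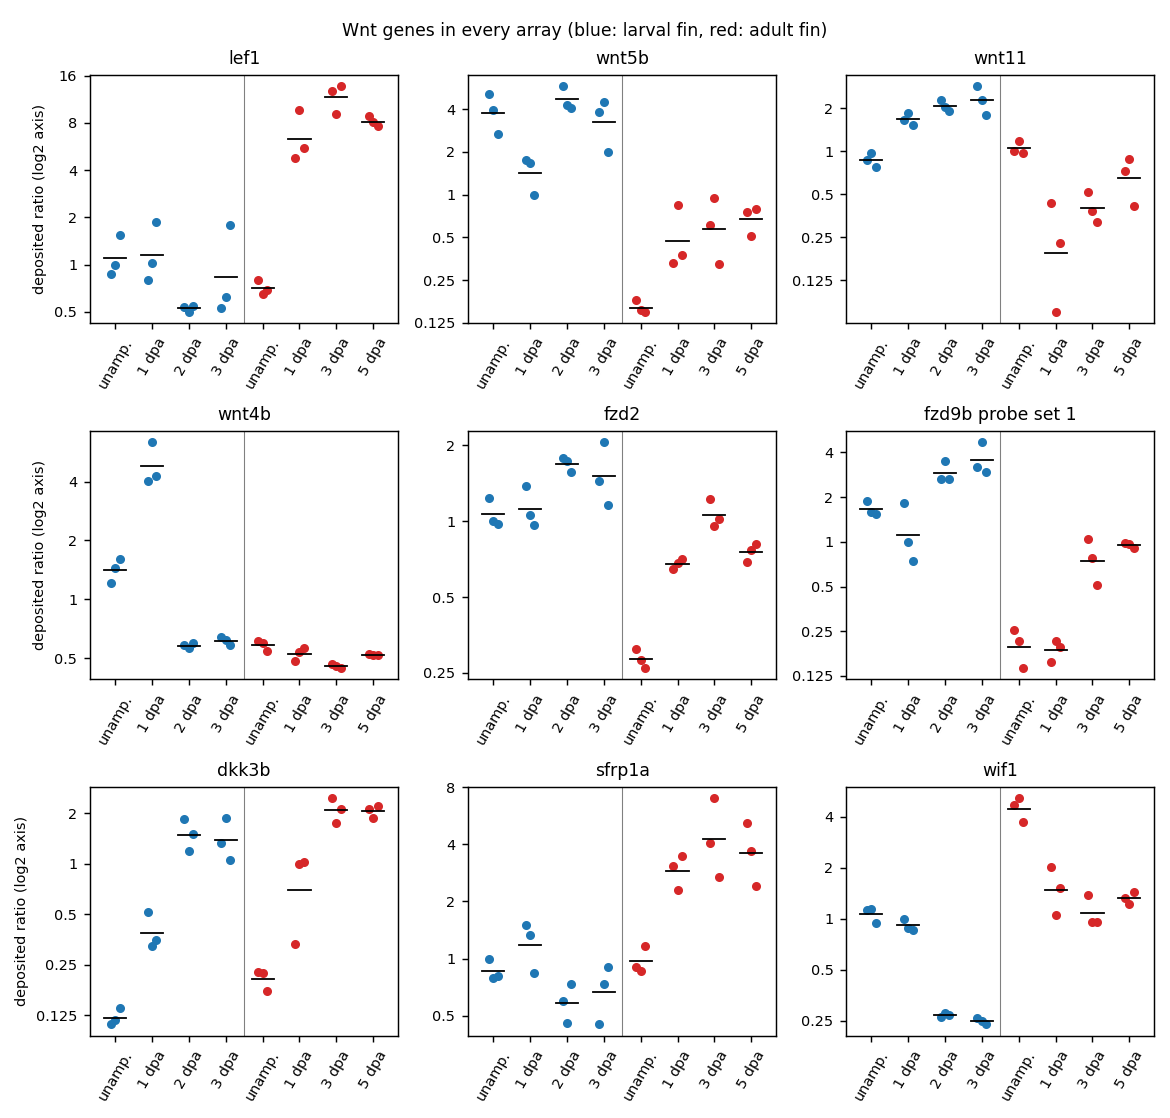
Deposited ratio (vertical log2 axis) of 9 Wnt probe sets on every array, in unamputated fin and at each day post amputation; points are arrays, black lines the mean of log2 values of the 3 arrays in a group. lef1, fzd2 and sfrp1a are higher on all regenerating adult arrays, while dkk3b is higher and wif1 lower on all regenerating arrays of both ages at 3 dpa.

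Ligand secretion gave no single direction, because the 3 probe sets of wls, the Wntless gene, disagreed. Probe set 1 had larval ratios of 0.604, 0.424 and 0.976 in unamputated fin, 0.593, 0.564 and 0.699 at 1 dpa, 2.57, 2.65 and 2.97 at 2 dpa and 2.04, 2.98 and 2.49 at 3 dpa. In adults the ratios were 1.64, 1.7 and 1.7 in unamputated fin, 0.456, 1.24 and 0.426 at 1 dpa, 0.281, 1.05 and 0.25 at 3 dpa and 0.14, 0.713 and 0.23 at 5 dpa. Larval arrays at 2 and 3 dpa were all above the earlier ones, and all regenerating adult arrays were below the unamputated ones. In adults it changed by -1.43 ± 0.68, -2.0 ± 0.68 and -2.56 ± 0.68 at 1, 3 and 5 dpa, called at 3 and 5 dpa, and in larvae by -0.03 ± 0.25, 2.11 ± 0.25 and 1.97 ± 0.25 at 1, 2 and 3 dpa, called at 2 and 3 dpa. On each adult day 1 array, at 1.24, 1.05 and 0.713, lay well above the other 2. Its adult call at 3 dpa was lost at -1.86 with arrays centred on their median, -2.02 without replicate 1 of adult unamputated fin, -2.0 without replicate 2 of adult unamputated fin, -2.0 without replicate 3 of adult unamputated fin, -1.72 without replicate a of adult 3 dpa and -1.63 without replicate c of adult 3 dpa. Its adult call at 5 dpa was lost at -2.05 without replicate a of adult 5 dpa and -2.41 without replicate c of adult 5 dpa.

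Probe set 2 of wls moved the other way in both ages. Its larval ratios were 1.25, 1.31 and 1.19 in unamputated fin, 1.07, 1 and 0.962 at 1 dpa, 0.848, 0.836 and 0.71 at 2 dpa and 0.776, 0.651 and 0.923 at 3 dpa. Its adult ratios were 0.837, 0.789 and 0.563 in unamputated fin, 1.44, 1.54 and 1.4 at 1 dpa, 1.72, 1.72 and 1.76 at 3 dpa and 1.91, 1.44 and 2.24 at 5 dpa. It rose in adults by 1.02 ± 0.18, 1.27 ± 0.18 and 1.35 ± 0.18 at 1, 3 and 5 dpa (adjusted p 0.0018, 0.00079 and 0.00092), with larval changes of -0.30 ± 0.13, -0.65 ± 0.13 and -0.69 ± 0.13 at 1, 2 and 3 dpa. The rise at adult 1 dpa lost its call at 0.82 after quantile normalization, 0.91 with array weights, 0.84 without replicate 3 of adult unamputated fin and 0.98 without replicate d of adult 1 dpa. Probe set 3 had larval ratios of 0.998, 0.944 and 1.12 in unamputated fin, 0.92, 0.97 and 0.985 at 1 dpa, 1.11, 1.16 and 1.09 at 2 dpa and 1.07, 1.13 and 1.42 at 3 dpa. Adult fin gave 0.7, 0.692 and 0.609 in unamputated fin, 0.909, 1.07 and 0.929 at 1 dpa, 1.07, 1.06 and 1.13 at 3 dpa and 1.07, 1 and 0.978 at 5 dpa. It changed by 0.54 ± 0.10, 0.70 ± 0.10 and 0.61 ± 0.10 at 1, 3 and 5 dpa in adults, below 2-fold, and by -0.09 ± 0.12, 0.14 ± 0.12 and 0.23 ± 0.12 at 1, 2 and 3 dpa in larvae. Probe sets 2 and 3 are annotated to the same sequence record and probe set 1 to another. Sets 2 and 3 had positive changes on all 3 adult days, though only set 2 was called, and set 1 had negative ones. Probe sets 1 and 2 shared their sign in 1 of 6 comparisons and were up to 3.91 apart, while sets 2 and 3 shared it in 4 of 6. A direction for wls as a gene therefore cannot be given from these arrays, and it is counted as mixed at adult 3 and 5 dpa. The Porcupine-like gene porcnl was never called, with changes of 0.64 ± 0.14, 0.55 ± 0.14 and 0.63 ± 0.14 at 1, 2 and 3 dpa in larvae and -0.38 ± 0.14, -0.30 ± 0.14 and -0.56 ± 0.14 at 1, 3 and 5 dpa in adults.

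**Figure D4:**
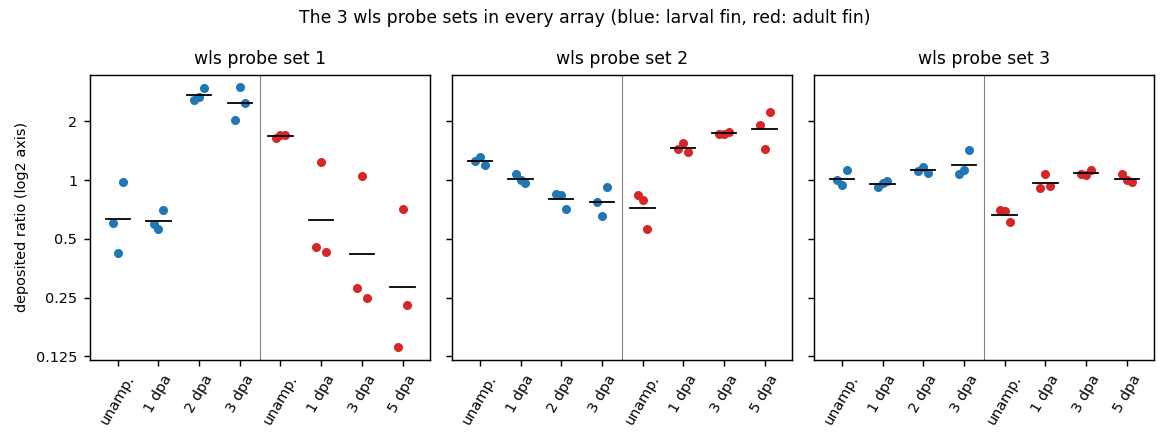
Deposited ratio (shared vertical log2 axis) of the 3 wls probe sets on every array, by group; points are arrays and black lines the mean of log2 values. In adults probe set 1 is lower after amputation (mean changes of -1.43 to -2.56) and probe set 2 higher (1.02 to 1.35).

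Among the secreted antagonists, dkk3b and wif1 were called in both ages, as were wnt5b, wnt11, wls probe set 1 and both fzd9b probe sets of the other roles. The Dickkopf relative dkk3b had larval ratios of 0.11, 0.117 and 0.137 in unamputated fin, 0.513, 0.321 and 0.349 at 1 dpa, 1.86, 1.19 and 1.5 at 2 dpa and 1.33, 1.88 and 1.06 at 3 dpa. In adult fin they were 0.225, 0.223 and 0.173 in unamputated fin, 0.334, 1 and 1.02 at 1 dpa, 2.46, 1.74 and 2.13 at 3 dpa and 2.11, 1.88 and 2.21 at 5 dpa. Every regenerating array exceeded every unamputated one of its age, and 3 dpa arrays exceeded those at 1 dpa. It rose in larvae by 1.68 ± 0.24, 3.62 ± 0.24 and 3.52 ± 0.24 at 1, 2 and 3 dpa (adjusted p 0.0015, 2.6e-06 and 3.4e-06) and in adults by 1.77 ± 0.36, 3.35 ± 0.36 and 3.33 ± 0.36 at 1, 3 and 5 dpa (0.0039, 0.00024 and 0.00037), which at 3 dpa is 11.5-fold and 10.2-fold. The adult and larval changes differed by 0.09 ± 0.46 at 1 dpa and -0.17 ± 0.46 at 3 dpa, neither called. The larval rise at 1 dpa lost its call at 1.32 after quantile normalization and 0.62 with ratios below 0.25 raised to 0.25.

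wif1, which encodes a secreted protein that binds Wnt ligands, was lower in both ages. Larval ratios were 1.12, 1.15 and 0.948 in unamputated fin, 1, 0.885 and 0.86 at 1 dpa, 0.264, 0.276 and 0.271 at 2 dpa and 0.26, 0.25 and 0.238 at 3 dpa. Adult fin had ratios of 4.68, 5.15 and 3.71 in unamputated fin, 2.01, 1.05 and 1.51 at 1 dpa, 1.38, 0.963 and 0.961 at 3 dpa and 1.33, 1.22 and 1.44 at 5 dpa. The larval fall came between 1 and 2 dpa with no overlap, whereas all adult arrays were already lower at 1 dpa. It changed by -0.23 ± 0.10, -1.99 ± 0.10 and -2.10 ± 0.10 at 1, 2 and 3 dpa in larvae, called at 2 and 3 dpa (adjusted p 7.0e-07 and 4.7e-07). In adults it changed by -1.60 ± 0.23, -2.04 ± 0.23 and -1.75 ± 0.23 at 1, 3 and 5 dpa and fell on all 3 days (0.00081, 0.00031 and 0.00094). At 3 dpa the 2 ages differed by 0.06 ± 0.26, which was not called. The larval fall of wif1 at 2 and 3 dpa came with the fall of the muscle, notochord and cartilage, and erythrocyte lists given above. In adults no gene of the muscle or erythrocyte list fell. In unamputated adult fin the mean log2 ratios of these lists were -0.62 to -0.61 and -0.32 to 0.11. In unamputated larval fin they were 3.81 to 5.81 and 2.62 to 2.79. How far the lists could have fallen in adults cannot be read from ratios. The part of cell content in the adult fall of wif1 was not tested. Of the 9 notochord and cartilage genes in adults, 1, 3 and 4 rose at 1, 3 and 5 dpa, and the only one to fall did so at 3 dpa.

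sfrp1a, a secreted Frizzled-related protein gene, gave adult ratios of 0.909, 0.857 and 1.16 in unamputated fin, 3.09, 2.3 and 3.47 at 1 dpa, 4.08, 6.99 and 2.7 at 3 dpa and 5.17, 3.68 and 2.42 at 5 dpa. Every regenerating adult array exceeded the unamputated ones. It rose by 1.59 ± 0.35, 2.14 ± 0.35 and 1.89 ± 0.35 at 1, 3 and 5 dpa (adjusted p 0.0055, 0.0016 and 0.0041). Larval ratios were 1, 0.787 and 0.812 in unamputated fin, 1.5, 1.33 and 0.837 at 1 dpa, 0.6, 0.457 and 0.736 at 2 dpa and 0.451, 0.738 and 0.899 at 3 dpa. They overlapped unamputated fin at 1 and 3 dpa, and changes of 0.46 ± 0.28, -0.56 ± 0.28 and -0.36 ± 0.28 at 1, 2 and 3 dpa were not called. dkk2, a Dickkopf gene that can act with or against canonical signalling depending on context, gave adult ratios of 4, 3.53 and 4.78 in unamputated fin, 2.13, 0.667 and 0.999 at 1 dpa, 1.15, 1 and 1.26 at 3 dpa and 2.05, 1.17 and 1.04 at 5 dpa. It was lower on every regenerating adult array and fell by 1.86 ± 0.38, 1.85 ± 0.38 and 1.59 ± 0.38 at 1, 3 and 5 dpa (adjusted p 0.0039, 0.0044 and 0.012). Larval dkk2 ratios were 0.718, 0.613 and 0.543 in unamputated fin, 1.64, 0.917 and 0.768 at 1 dpa, 0.392, 0.433 and 0.442 at 2 dpa and 0.466, 0.507 and 0.843 at 3 dpa. No larval change of dkk2 against unamputated fin was called.

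In this role 2 more genes were called once each. dkk1b, an inhibitor that blocks the Lrp co-receptors and a known target of the pathway, fell in larvae at 1 dpa by 1.25 ± 0.32 (adjusted p 0.025) and was near unamputated fin at 2 and 3 dpa, with changes of 0.16 ± 0.32 and 0.31 ± 0.32. Its adult changes of -0.49 ± 0.36, 0.20 ± 0.36 and 0.88 ± 0.36 at 1, 3 and 5 dpa were not called. The larval fall lost its call at -1.43 after quantile normalization, -1.11 without replicate 1 of larval unamputated fin, -1.29 without replicate 2 of larval unamputated fin, -1.14 without replicate 2 of larval 1 dpa and -1.02 without replicate 3 of larval 1 dpa. frzb, another secreted Frizzled-related gene known from cartilage, fell in adults at 1 dpa by 1.46 ± 0.39 (adjusted p 0.013), and the call was lost at -1.24 without replicate 2 of adult unamputated fin. Both probe sets of sfrp5 were never called, with changes of -0.26 to 0.43.

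In larvae none of the 7 probe sets of cytoplasmic transducers was called at any day, with changes of -0.86 to 0.39. In adults 3 of the 6 genes were. gsk3ba, which encodes a form of the kinase that phosphorylates β-catenin, gave adult ratios of 1.11, 0.535 and 0.4 in unamputated fin, 3.16, 2.02 and 1.83 at 1 dpa, 1.26, 1.19 and 1.3 at 3 dpa and 0.901, 1.18 and 1.02 at 5 dpa. The arrays at 1 dpa were the highest and unamputated replicate 1 lay apart from the other 2 unamputated arrays. It changed by 1.87 ± 0.33, 1.01 ± 0.33 and 0.73 ± 0.33 at 1, 3 and 5 dpa and rose at 1 and 3 dpa (adjusted p 0.0018 and 0.031). The rise at 3 dpa lost its call at 0.89 after quantile normalization, 0.71 with array weights, 0.91 without replicate 2 of adult unamputated fin, 0.70 without replicate 3 of adult unamputated fin, 1.01 without replicate a of adult 3 dpa, 1.04 without replicate b of adult 3 dpa and 0.98 without replicate c of adult 3 dpa. Larval gsk3ba ratios were 0.86, 1.03 and 0.583 in unamputated fin, 1.41, 0.888 and 0.595 at 1 dpa, 0.954, 1.13 and 0.919 at 2 dpa and 1.09, 1 and 0.961 at 3 dpa, with overlapping groups.

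dvl2, a Dishevelled gene, changed in adults by 0.44 ± 0.25, 1.15 ± 0.25 and 1.07 ± 0.25 at 1, 3 and 5 dpa and rose at 3 and 5 dpa (adjusted p 0.0056 and 0.011). The call at 3 dpa was lost at 0.92 without replicate 3 of adult unamputated fin and 0.93 without replicate a of adult 3 dpa, and that at 5 dpa at 0.97 after quantile normalization, 0.95 with array weights, 0.85 without replicate 3 of adult unamputated fin and 0.95 without replicate a of adult 5 dpa. Probe set 1 of axin1, the scaffold of the destruction complex, fell at adult 1 dpa by 1.15 ± 0.24 (adjusted p 0.0045), but probe set 2 changed by 0.25 ± 0.20 and was not called. The fall lost its call at -1.0 with arrays centred on their median, -0.86 after quantile normalization, -0.99 without replicate 3 of adult unamputated fin and -0.98 without replicate d of adult 1 dpa. axin2, a feedback inhibitor widely used as a readout of canonical signalling, did not reach 2-fold in any comparison. Its adult ratios were 0.519, 0.371 and 0.341 in unamputated fin, 0.262, 0.45 and 0.494 at 1 dpa, 0.784, 0.541 and 0.661 at 3 dpa and 0.742, 0.645 and 0.59 at 5 dpa. Larval fin gave 1.28, 1.35 and 1.35 in unamputated fin, 1.27, 1 and 0.97 at 1 dpa, 1.4, 1.53 and 1.64 at 2 dpa and 1.75, 1.93 and 1.56 at 3 dpa. Its arrays at adult 3 and 5 dpa lay above all unamputated ones, with changes of 0.70 ± 0.25 and 0.70 ± 0.25 (adjusted p 0.046 and 0.053), and the larval change at 3 dpa was 0.39 ± 0.13 (0.039).

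The largest change in the gene set was that of lef1, a DNA-binding partner of β-catenin that is itself a known target of the pathway, in adult fin. Its adult ratios were 0.799, 0.649 and 0.684 in unamputated fin, 4.79, 9.65 and 5.5 at 1 dpa, 12.8, 9.15 and 13.8 at 3 dpa and 8.8, 8.07 and 7.65 at 5 dpa. No regenerating array came near the unamputated ones, the lowest being 4.79 against a highest unamputated ratio of 0.799. It rose by 3.16 ± 0.25, 4.05 ± 0.25 and 3.53 ± 0.25 at 1, 3 and 5 dpa, which is 8.95-fold, 16.6-fold and 11.5-fold (adjusted p 5.5e-05, 1.5e-05 and 4.7e-05). Larval ratios were 0.865, 1 and 1.54 in unamputated fin, 0.795, 1.03 and 1.87 at 1 dpa, 0.538, 0.498 and 0.543 at 2 dpa and 0.528, 0.619 and 1.78 at 3 dpa. The larval groups at 1 and 3 dpa overlapped unamputated fin, and at 3 dpa replicate 3 lay far above the other 2, the array that also stood apart over all probe sets. Larval changes were 0.07 ± 0.43, -1.07 ± 0.43 and -0.40 ± 0.43 at 1, 2 and 3 dpa and none was called (adjusted p 0.95, 0.086 and 0.56). Without replicate 3 the change at 3 dpa was -0.95. At 2 dpa all 3 larval arrays were lower than all unamputated ones. Beside the adult rise, the mean log2 ratio of the fin mesenchyme and blastema list was -3.37 to -3.20 in unamputated adult fin. It was -1.49 to -0.88 at adult 1 dpa, when 4 of its 6 genes rose and 2 fell, and 0.19 to 0.42 at 3 dpa. In larvae the list mean was -0.82 to -0.67 in unamputated fin and 0.18 to 0.49 at 3 dpa, when 2 of the 6 genes rose and 4 were not called.

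Other genes of this role rose in adults by less. ctnnb1 encodes β-catenin, and its probe set 1 changed by 1.03 ± 0.38, 1.08 ± 0.38 and 1.42 ± 0.38 at 1, 3 and 5 dpa, called on all 3 days with adjusted p of 0.048, 0.042 and 0.019, though at 1 dpa its arrays overlapped unamputated fin. Without unamputated replicate 3, which was its lowest array, the changes were 0.65, 0.69 and 1.04, none called. The call at 1 dpa was also lost at 0.80 after quantile normalization, 1.03 with ratios below 0.25 raised to 0.25, 1.13 without replicate 1 of adult unamputated fin, 0.85 without replicate d of adult 1 dpa and 0.86 without replicate e of adult 1 dpa. At 3 dpa it was lost at 0.92 after quantile normalization, 0.90 with array weights, 1.18 without replicate 1 of adult unamputated fin, 0.93 without replicate a of adult 3 dpa and 0.96 without replicate b of adult 3 dpa, and at 5 dpa at 1.40 without adult 5 dpa replicate a and 1.32 without adult 5 dpa replicate c. Probe set 2 of ctnnb1 changed by 0.72 ± 0.14, 0.85 ± 0.14 and 0.67 ± 0.14 at 1, 3 and 5 dpa, and the second β-catenin gene ctnnb2 by 0.93 ± 0.17, 0.85 ± 0.17 and 0.56 ± 0.17 at 1, 3 and 5 dpa, all with adjusted p under 0.05 but below 2-fold.

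tcf7l2, a Tcf gene, changed in adults by 0.79 ± 0.41, 1.19 ± 0.41 and 1.21 ± 0.41 at 1, 3 and 5 dpa and was called at 3 and 5 dpa (adjusted p 0.039 and 0.045). At 3 dpa its call was lost at 0.93 with array weights, 1.27 without replicate 2 of adult unamputated fin, 0.74 without replicate 3 of adult unamputated fin, 1.15 without replicate a of adult 3 dpa and 1.05 without replicate c of adult 3 dpa. At 5 dpa it was lost at 0.94 with array weights, 1.29 without replicate 2 of adult unamputated fin, 0.77 without replicate 3 of adult unamputated fin, 0.92 without replicate a of adult 5 dpa and 1.20 without replicate b of adult 5 dpa. ctnnbip1, which encodes an inhibitor of the contact between β-catenin and Tcf, rose at adult 1 and 3 dpa by 1.24 ± 0.20 and 1.01 ± 0.20 (adjusted p 0.0012 and 0.0035). Its call at 1 dpa was lost at 0.97 after quantile normalization, and at 3 dpa at 0.87 after quantile normalization, 0.82 without replicate 1 of adult unamputated fin, 0.98 without replicate b of adult 3 dpa and 0.97 without replicate c of adult 3 dpa. ctnnbl1, the splicing-associated gene, rose at adult 1 and 3 dpa by 1.44 ± 0.20 and 1.24 ± 0.20 (adjusted p 0.00069 and 0.0015). The repressive Tcf genes tcf7l1a and tcf7l1b were never called. No gene of this role was called in larval fin against unamputated fin at any day. The largest of those larval changes after that of lef1 was 0.82 ± 0.23 for tcf7l2 at 2 dpa.

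From 1 to 2 dpa in larvae, 11 of the 50 probe sets were called, where 8.93% of all probe sets were called. Of these 7 were higher, beside 3.6% of all, and 4 lower, beside 5.33%. The rises were in wls probe set 1 (2.15), dkk3b (1.95), wnt5b (1.71), dkk1b (1.41), both fzd9b probe sets (1.40 and 1.36) and tcf7l2 (1.05). The falls were in wnt4b (-3.04), wif1 (-1.76), dkk2 (-1.31) and sfrp1a (-1.02). The call of sfrp1a was lost at -0.84 without replicate 1 of larval 1 dpa, -0.94 without replicate 2 of larval 1 dpa, -1.03 without replicate 1 of larval 2 dpa and -0.84 without replicate 2 of larval 2 dpa. That of tcf7l2 was lost at 0.83 without replicate 3 of larval 1 dpa, and that of dkk2 at -0.99 without replicate 1 of larval 1 dpa. Over the same step 9 of 10 skeletal muscle markers and 10 of 11 cell cycle genes fell, and DMSO was stated from 2 dpa on. This step also crosses the 2 sets of array titles, while that from larval 2 to 3 dpa lies within 1 set. Day, vehicle and title set cannot be told apart here. From larval 2 to 3 dpa limma called none, where 0.297% of all probe sets were called, and 3 of 50 had an unadjusted p under 0.05; none was called after quantile normalization or with array weights either.

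From adult 1 to 3 dpa, 3 probe sets were called, where 2.48% of all were, and 3 rose, beside 2.09%, while none fell, beside 0.393%. They were both fzd9b probe sets, given above, and dkk3b by 1.58 ± 0.36 (adjusted p 0.037). The call of dkk3b was lost at 1.46 without replicate a of adult 3 dpa, 1.71 without replicate b of adult 3 dpa and 1.56 without replicate c of adult 3 dpa. Without adult 1 dpa replicate b, 5 were called. From adult 3 to 5 dpa limma called none, where 0.0516% of all probe sets were called, and 3 of 50 had an unadjusted p under 0.05; quantile normalization and array weights called none either. Deviations of adult replicates with the same letter correlated at 0.156 to 0.433 between these 2 days, and unlike letters were not compared. The fit that used the letters as a replicate block also called 0.

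Whether the adult change differed from the larval change on the same day was tested over all 24 arrays. At 1 dpa 15 of 50 probe sets were called, where 17.9% of all probe sets were. The adult change was higher in 7, beside 8.92% of all, and lower in 8, beside 9.01%. At 3 dpa 12 were called, beside 22.1% of all probe sets, with 8 higher (11.5%) and 4 lower (10.6%), so the Wnt share of 24% was close to the background. That split moved with scaling: 78.6% of calls were higher with arrays centred on their median (11 higher, 3 lower) and 80% after quantile normalization (8 higher, 2 lower), against 66.7%. For lef1 the adult change was higher by 3.10 ± 0.53 at 1 dpa and 4.45 ± 0.53 at 3 dpa (adjusted p 0.00032 and 4.2e-06). For wnt11 the difference was -3.36 ± 0.58 and -2.78 ± 0.58 (0.00034 and 0.001). Its larval change was positive and its adult change negative on both days, but on neither day were both called. For wnt5b it was higher by 2.96 ± 0.56 and 2.05 ± 0.56 (0.00079 and 0.0076), and the difference at 3 dpa lost its call at 0.20 after quantile normalization and 1.41 with ratios below 0.25 raised to 0.25. sfrp1a differed at 3 dpa by 2.50 ± 0.47 (0.00046), and dkk2 by -2.61 ± 0.49 at 1 dpa and -1.76 ± 0.49 at 3 dpa.

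Called in both ages at 3 dpa were 5 probe sets, and 4 of these moved the same way: dkk3b and both fzd9b probe sets were higher and wif1 lower, while wls probe set 1 was opposite. No difference between the adult and larval changes of these 4 was called, and the differences were -0.17 ± 0.46 for dkk3b, 0.84 ± 0.41 and 0.28 ± 0.29 for fzd9b and 0.06 ± 0.26 for wif1. At 1 dpa 2 were called in both ages, dkk3b in the same and wnt5b in the opposite direction. How many of all probe sets were called in both ages, or moved the same way, was not counted. Nothing particular to the Wnt genes can therefore be read from these numbers. The 2 ages have their own unamputated arrays, so these counts share no control, but age, kit and RNA input moved together. Vehicle and the sets of array titles differed as well. At 1 dpa the adult contrast spans both title sets and includes injection, while the larval contrast lies within 1 set with no vehicle stated. At 3 dpa both contrasts span the title sets, with different vehicles. These cannot be told apart from the differences between the ages.

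**Figure D5:**
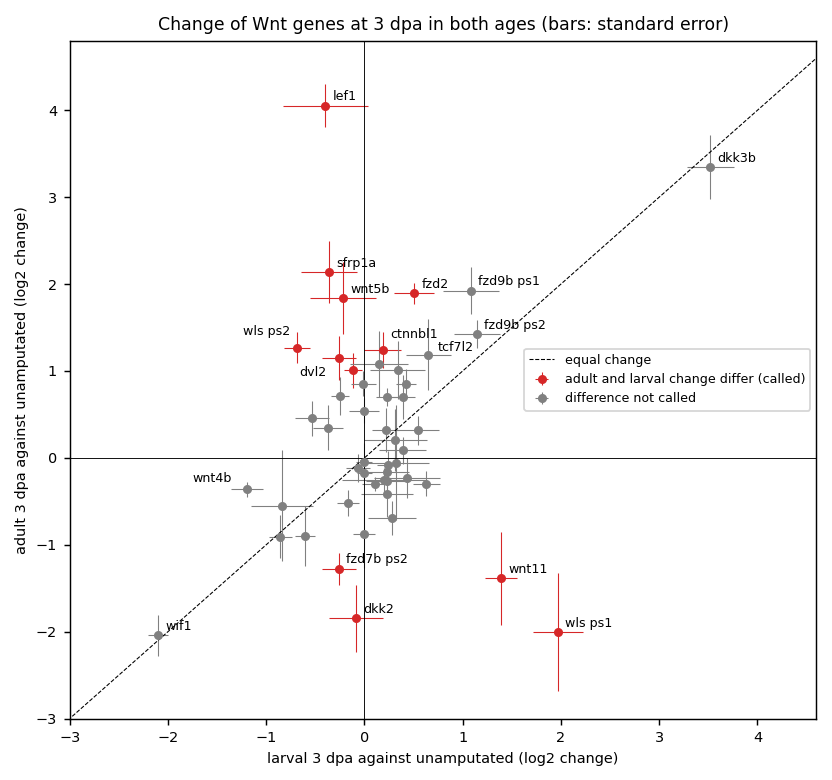
Log2 change of the 50 Wnt probe sets at 3 dpa against unamputated fin, larval (horizontal axis) and adult (vertical axis), with standard error bars; red points are the 12 whose adult and larval changes differed by the called test, and the dashed line marks equal change. Named points were called in at least 1 age; dkk3b and wif1 lie near the line, lef1 and wnt11 far from it.

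Other genes of the pathway were read from a list of 102, of which 52 were measured by 62 probe sets. It held polarity genes, regulators of receptors, cytoplasmic and nuclear cofactors and known vertebrate targets. At 1, 3 and 5 dpa in adults, 4, 5 and 4 of these genes rose, whereas 6, 4 and 4 fell. At 1, 2 and 3 dpa in larvae, none, 3 and 1 rose, whereas 4, 5 and 5 fell. By probe set, 21%, 16.1% and 12.9% were called in adults, where 16.1%, 14.3% and 11.5% of all probe sets were. In larvae 6.45%, 14.5% and 11.3% were called, where 4.01%, 12.5% and 10.6% of all were, so the list lay near the background on most days. The largest adult changes came from 6 genes, of which ccnd1, csnk1da and jun had 2 probe sets each. For these the probe set with the largest change is given first. tle2a, a Groucho corepressor gene, rose by 1.82 ± 0.46, 2.83 ± 0.46 and 2.27 ± 0.46 at 1, 3 and 5 dpa. The polarity gene prickle1b rose at 3 dpa by 1.77 ± 0.41, and the small GTPase gene rhoab at 5 dpa by 1.80 ± 0.54. ccnd1, which encodes cyclin D1, fell by 1.65 ± 0.17, 1.13 ± 0.17 and 1.25 ± 0.17, and the casein kinase gene csnk1da by 1.64 ± 0.23, 1.30 ± 0.23 and 1.09 ± 0.23. The second ccnd1 probe set changed by -1.02 ± 0.18, -0.48 ± 0.18 and -0.67 ± 0.18, called at 1 dpa alone. That of csnk1da changed by -1.63 ± 0.42, -1.37 ± 0.42 and -0.84 ± 0.42 and was not called at 5 dpa. A probe set of jun, an AP-1 subunit gene, fell at 1 and 3 dpa by 1.68 ± 0.33 and 1.39 ± 0.33. The other jun probe set changed by -1.40 ± 0.28 and -0.90 ± 0.28 on those days and was called at 1 dpa alone.

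In larvae jun and ccnd1 were again among the 6 genes with the largest changes of that list. Both jun probe sets rose at 2 and 3 dpa, by 2.05 ± 0.47 and 1.58 ± 0.47 in one and by 1.81 ± 0.26 and 1.45 ± 0.26 in the other, and cd44a, a hyaluronan receptor gene, rose at 2 dpa by 2.03 ± 0.69. The homeobox genes gbx2 and cdx4 fell on all 3 days, with changes of -1.76 ± 0.52, -2.90 ± 0.52 and -2.93 ± 0.52 for gbx2 and -1.25 ± 0.29, -2.07 ± 0.29 and -1.99 ± 0.29 for cdx4. At 2 dpa 1 of 3 probe sets of pygo2, a nuclear cofactor gene, fell by 2.12 ± 0.52, while the others changed by -0.82 ± 0.11 and -0.16 ± 0.19 and were not called. On that day 1 of 2 probe sets of ccnd1 fell by 1.42 ± 0.19, and the other changed by -1.0 ± 0.16, just under 2-fold, and was not called. Of 14 measured vertebrate targets of the pathway, none rose and 2 fell at adult 1 dpa, 1 rose and 3 fell at 3 dpa, and none rose and 1 fell at 5 dpa. Over all probe sets, counted by probe set and not by gene, 8.68% were called higher and 7.4% lower at adult 1 dpa. These shares were 8.1% and 6.19% at adult 3 dpa and 7.01% and 4.46% at adult 5 dpa. At larval 1, 2 and 3 dpa 2.43%, 6.23% and 5.08% were called higher and 1.58%, 6.32% and 5.51% lower. With 14 genes, nothing particular to the targets can be read from these counts.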

How the data were processed

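RNA of 24 fin samples was hybridized to Affymetrix arrays, which the authors processed by GCRMA (version not stated), as the submitters' processing notes have it. The deposited value is a linear ratio of each probe set to its own reference, whose origin is not given in the sources used here. It was log2 transformed and otherwise used as deposited. Of 15617 probe sets, 115 controls were left out. Of the 15502 tested, 10795 had 1 symbol, 135 several and 4572 none in GEO's platform annotation, and all 41 member genes matched current RefSeq names.

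Linear models (limma 3.58.1, R 4.3.3), with 1 mean for each group, used the 12 arrays of an age, or all 24 for adult minus larval changes. The fit was tested on simulated data. Members and lists were chosen with earlier results of these data known. Every member called against unamputated fin is named. Values on every array are given for the 14 with the largest called changes and for the other probe sets of their genes. A gene counts as higher or lower where at least 1 probe set was called so and none the other way. axin2, wnt10a, ctnnb1 probe set 2 and ctnnb2 fall outside that rule and were named for their roles with their values known. The fzd10 ratios also fall outside it and were given with their values known.

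Alternatives were centring, quantile normalization, a floor of 0.25, a filter on low ratios, array weights, no minimum fold, another probe set, leaving out each array and a replicate block. Adult 3 and 5 dpa share replicate letters a, b and c, whose deviations correlated at 0.433, 0.216 and 0.156. Unlike letters were not compared, so whether the letters pair those samples was not tested. They were used in the replicate block alone. Sequences and promoters were not analysed here.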

Additional observations from a re-analysis of the deposited data

Results flagged for a closer look

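Differences between the adult and the larval change on the same day drew attention because the test of the difference itself, in a limma model over all 24 arrays, was called. At 1 dpa the adult change was higher for lef1 by 3.10, wnt5b by 2.96, gsk3ba by 1.70, ctnnbip1 by 1.37, wls probe set 2 by 1.33, ctnnbl1 by 1.32 and fzd2 by 1.18. The adult minus larval difference at 1 dpa was negative for wnt11 (-3.36), dkk2 (-2.61), fzd7a (-1.94), wnt4b (-1.92), fzd7b probe set 2 (-1.61), frzb (-1.38), wif1 (-1.38) and porcnl (-1.02).

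At 3 dpa the adult change was higher for lef1 by 4.45, sfrp1a by 2.50, wnt5b by 2.05, wls probe set 2 by 1.95, dvl2 by 1.40, fzd2 by 1.39, ctnnbip1 by 1.12 and ctnnbl1 by 1.06. The difference was negative for wls probe set 1 (-3.98), wnt11 (-2.78), dkk2 (-1.76) and fzd7b probe set 2 (-1.02). The probe sets of wls were called in opposite directions.

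Several of these calls rested on a setting or an array. At 1 dpa the call was lost for fzd2 at 0.86 after quantile normalization, for wif1 at -0.91 after quantile normalization and for gsk3ba at 1.25 after quantile normalization. That of frzb was lost at -0.95 after quantile normalization, -1.15 without replicate 2 of adult unamputated fin and -1.19 without replicate d of adult 1 dpa, and that of porcnl at -0.88 with arrays centred on their median, -0.99 without replicate 2 of larval unamputated fin, -0.97 without replicate 1 of larval 1 dpa, -0.93 without replicate 3 of adult unamputated fin, -0.98 without replicate b of adult 1 dpa and -0.90 without replicate e of adult 1 dpa. At 3 dpa it was lost for fzd2 at 0.68 after quantile normalization, for dkk2 at -1.18 after quantile normalization and for ctnnbip1 at 0.93 without replicate 1 of adult unamputated fin. The difference in ctnnbl1 lost its call at 0.84 after quantile normalization, 0.97 with array weights, 0.88 without replicate 1 of larval unamputated fin, 0.92 without replicate 2 of adult unamputated fin, 0.93 without replicate a of adult 3 dpa, 1.0 without replicate b of adult 3 dpa and 0.86 without replicate 3 of larval 3 dpa. For fzd7b probe set 2 it was lost at -0.88 with arrays centred on their median, -0.65 after quantile normalization, -0.95 without replicate 2 of adult unamputated fin, -0.95 without replicate a of adult 3 dpa and -0.86 without replicate 2 of larval 3 dpa.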

How the results depend on the processing

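In all, 109 changes of Wnt probe sets were called. Of these 70 kept their direction and call under every scaling, filter and left-out array that gave a value for them. The other 39 lost the call under at least 1. The filter on low ratios gave a value for 94 of the 109, all still called. The rest were removed by that filter and count there as neither kept nor lost. It kept 7751 of 15502 probe sets by the level of ratios that each have a reference of their own. Such a filter cannot select expressed genes. Of the 7751 kept, 1857 were called at adult 1 dpa and 1601 at larval 2 dpa. Of all 15502, 2492 and 1945 were called. The kept probe sets were thus called more often than all probe sets in these 2 comparisons. Nothing is therefore concluded from these 94 values, which are included in the 1255 below. Over 1374 recomputed values, 1255 kept the call, 119 lost it and 0 changed sign. Sign changes arose only where a gene was read from another probe set. For changes called on wls probe set 1, probe set 2 gave -0.65 and -0.69 at larval 2 and 3 dpa, -0.34 from larval 1 to 2 dpa, 1.27 and 1.35 at adult 3 and 5 dpa and 1.95 for the adult minus larval difference at 3 dpa. Probe set 3 gave 0.70 and 0.61 at adult 3 and 5 dpa and 0.47 for that difference. For changes called on wls probe set 2, probe set 1 gave -1.43, -2.0 and -2.56 at adult 1, 3 and 5 dpa, and -1.40 and -3.98 for the differences at 1 and 3 dpa. axin1 probe set 2 gave 0.25 at adult 1 dpa, and fzd7b probe set 1 gave 0.29 for the difference at 3 dpa. The cause was not tested.

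With no minimum fold, calls numbered 14 at larval 2 and at larval 3 dpa, 28, 29 and 24 at adult 1, 3 and 5 dpa, 6 from adult 1 to 3 dpa, and 23 and 21 for the differences at 1 and 3 dpa; a looser rule calls more by construction. Quantile normalization called 10 at larval 2 dpa, where the cause was not tested. Leaving out 1 array gave 2 to 4 at larval 1 dpa (2 without larval unamputated replicate 1) and 2 to 5 from adult 1 to 3 dpa (5 without adult 1 dpa replicate b). With a replicate block, 4, 7 and 7 were called at larval 1, 2 and 3 dpa, 12 from larval 1 to 2 dpa, and 0 from larval 2 to 3 and from adult 3 to 5 dpa. Larval numbers gave correlations of -0.035 to 0.179, a range that holds the 0.156 of adult letter c. Whether the larval numbers pair the samples was not tested. No paired analysis was possible for the other comparisons because the labels give them fewer than 2 shared replicate numbers.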
